A study of Ursus arctos with 12 samples.

Results

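Valine, leucine and isoleucine, the branched-chain amino acids, are broken down largely outside the liver, and skeletal muscle is a main site of the first step. Their breakdown starts with a reversible transamination in the mitochondrion by BCAT2. The resulting keto acids are then oxidized by the branched-chain keto acid dehydrogenase complex, the committed step, whose activity is shut off by the kinase BCKDK and restored by the phosphatase PPM1K. The mRNA levels of 10 genes of this pathway were followed in bear muscle between the active and the hibernating period. The genes were taken by symbol: BCAT2, the complex subunits BCKDHA, BCKDHB and DBT, the regulators BCKDK and PPM1K, the leucine enzymes IVD, MCCC1 and MCCC2, and the valine enzyme HIBCH. All 10 were found among the 30249 genes of the count table, and all 10 were among the 17290 genes with at least 30 reads over the 12 libraries.

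The libraries came from the vastus lateralis, a thigh muscle, of 6 free-ranging brown bears (Ursus arctos) aged 2 to 3 years. Each bear gave 1 biopsy in winter, during hibernation, and 1 in summer, during the active period of the same year, so that the seasons were compared within bears. Season comes with feeding, movement and body temperature, which cannot be told apart here. A biopsy is a mix of cells, and fewer fibres or less RNA per fibre cannot be told apart either.

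Between 16742406 and 32140160 reads per library were counted on genes. Levels are given as CPM, reads scaled to library depth (counts per 1e6) with TMM factors, and a difference is on the log2 scale, winter minus summer. Only the summed levels of marker lists are scaled to library totals, without TMM factors. Sums with TMM factors were not computed. Over all genes the median log2 fold change was −0.01 with TMM factors and −0.08 with library totals. Each adjusted p comes from edgeR's quasi-likelihood test with the bear as a block and Benjamini-Hochberg adjustment over all genes tested, and a gene was called at an adjusted p below 0.05. The winter library of bear 1509 stood apart, at 98.6 on the second principal component (14.6% of the variance) against −23.1 to −6.35 for the other winter libraries. Values without bear 1509 are therefore given where they matter. The muscle markers CKM, DES, MB and ACTA1 were abundant in all libraries. Scaled to library totals, the 6 fibre markers found summed to 116198 to 165096 CPM in summer and 117505 to 135975 CPM in winter. On that scale the sum was lower in 5 of 6 bears. Of the 6 markers, MB (−1.02, adjusted p = 0.000660) and ACTA1 (−0.91, adjusted p = 0.0152) were called lower and TTN (0.65, adjusted p = 0.00675) higher. The other 3 were not called, with CKM at 0.04 (adjusted p = 0.893), higher in 3 bears and lower in 3. MB, the oxygen store of the fibre, thus fell about as far as the least changed of the 9 called genes described next.

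Of the 10 genes, 9 were down-regulated in winter, 0 were higher, and BCKDHA was not called, where 21.2% of all genes tested were called lower and 19.6% higher. No gene was higher without adjustment of p either (0 at p below 0.05), nor in the DESeq2 fits (0). For the same 9 genes every winter library lay below every summer library, which held for 8.21% of all genes. The median log2 fold change of the 10 genes was −1.30, against −0.01 for all genes tested. The 9 called genes ran from −2.20 for PPM1K to −1.07 for MCCC1, and each was lower in 6 of 6 bears, as were 19.0% of all genes. With stricter limits, adjusted p under 0.01 and winter under 0.77 of summer, the count was again 9 of 10, against 13.4% of all genes.

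**Figure D1:**
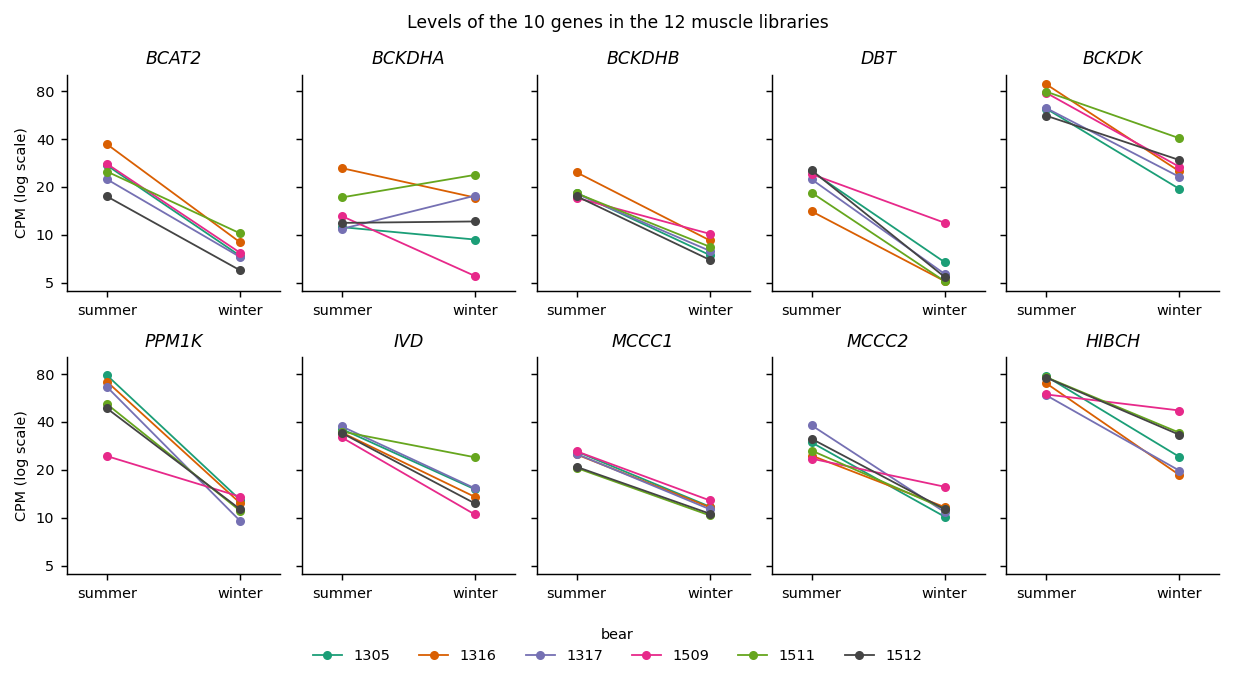
Levels of the 10 genes in CPM on a log axis, with a line joining the summer and the winter library of each of the 6 bears. In 9 panels the winter points lie below all summer points, while the lines of BCKDHA run up in 3 bears and down in 3.

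BCAT2, the mitochondrial transaminase that opens the pathway, was at 17.5 CPM in the lowest summer library, 26.2 in the median and 37.2 in the highest. In winter it lay between 5.99 and 10.2 CPM with a median of 7.56. The seasons did not overlap, and winter was at 0.306 of the summer level. This was a difference of −1.71 ± 0.13 (SE) in the fit, at an adjusted p of 1.18e-05, with single bears between −2.04 and −1.28. Bear 1316 had the highest summer level and the largest fall, and without it the log2 fold change was −1.64. This bear also had the largest falls of adipocyte transcripts, given below.

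The dehydrogenase complex is built from a decarboxylase, whose alpha and beta subunits are encoded by BCKDHA and BCKDHB, and a core acyltransferase, encoded by DBT. BCKDHB and DBT were down-regulated in winter, whereas BCKDHA was not called. BCKDHB stood at 17.1 to 24.7 CPM in summer (median 18.2) and at 6.97 to 10.2 CPM in winter (median 8.18). DBT stood at 14.1 to 25.5 CPM in summer (median 23.2) and at 5.11 to 11.9 CPM in winter (median 5.56). Both genes fell without overlap of the seasons, BCKDHB by 1.18 ± 0.12 (SE, adjusted p = 6.75e-05) and DBT by 1.74 ± 0.16 (SE, adjusted p = 4.24e-05) on the log2 scale. The winter level of DBT was highest in bear 1509, and without this bear its log2 fold change was −1.87.

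BCKDHA encodes the subunit that BCKDK phosphorylates. Its summer levels were 10.9 to 26.3 CPM (median 12.5) and its winter levels 5.52 to 23.8 CPM (median 14.7), so that the seasons overlapped over most of their range. It was higher in winter in 3 bears, by up to 0.69 in bear 1317, and lower in 3, down to −1.24 in bear 1509. The fitted difference was −0.14 ± 0.22 (SE, adjusted p = 0.640). Its 95% interval in the fit ran from −0.63 to 0.35, or from 0.645 to 1.28 of the summer level. The interval uses a variance moderated over the genes tested, and an interval from the 6 bears alone was not computed. Without bear 1509 the difference was 0.073 (adjusted p = 0.774). With 100 to 551 reads per library, BCKDHA was counted about as deeply as BCKDHB with 140 to 518.

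**Figure D2:**
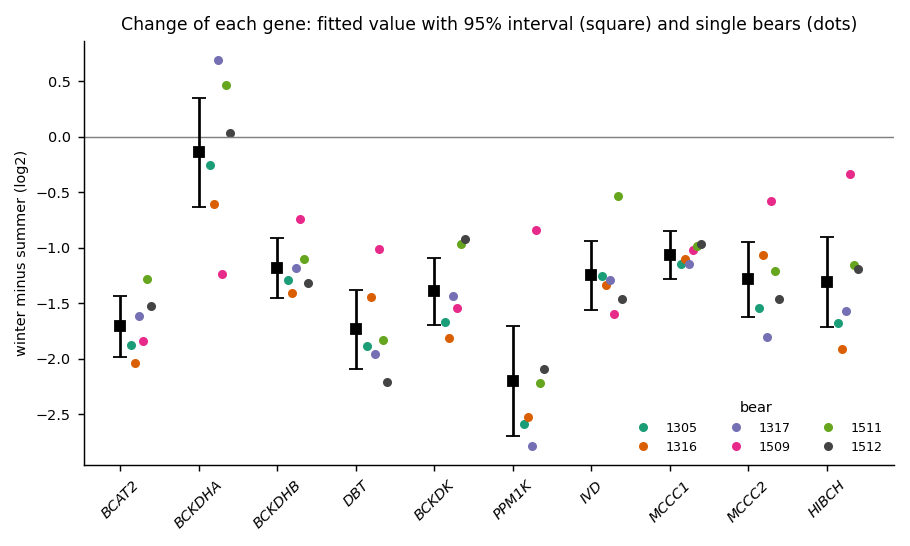
Winter minus summer difference on the log2 scale for each gene, with the fitted log2 fold change and its 95% interval (square and bar) and the 6 single bears (dots). Only the interval of BCKDHA, −0.63 to 0.35, includes 0, and MCCC1 has the narrowest spread of bears.

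Both enzymes that switch the complex were down-regulated. BCKDK, the inactivating kinase, lay at 56.1 to 88.3 CPM in summer (median 70.3) and at 19.4 to 40.5 CPM in winter (median 25.9). The fitted difference was −1.39 ± 0.14 (SE, adjusted p = 5.64e-05), and bears 1511 and 1512 showed the smallest falls, −0.97 and −0.92. PPM1K, the activating phosphatase, had the largest change of the 10 genes. It fell from 24.4 to 78.7 CPM in summer (median 59.2) to 9.57 to 13.6 CPM in winter (median 11.9), to 0.218 of the summer level. Its fitted difference was −2.20 ± 0.22 (SE, adjusted p = 6.52e-05), and 321 of the 17290 genes had a value at or below it. The winter levels of PPM1K were close together, and the spread lay in summer. Bear 1509 had 24.4 CPM in that season and the other bears 48.7 CPM or more, and without bear 1509 the log2 fold change was −2.44.

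In the leucine branch, IVD oxidizes isovaleryl-CoA, and MCCC1 and MCCC2 encode the alpha and beta subunits of the biotin-dependent methylcrotonyl-CoA carboxylase. IVD was the steadiest of the 10 genes in summer, at 31.97 to 37.5 CPM (median 34.6), and stood at 10.5 to 24.0 CPM in winter (median 14.3). It differed by −1.25 ± 0.14 (SE, adjusted p = 0.000105) on the log2 scale, with bear 1511 at −0.54 and the other bears between −1.60 and −1.25. MCCC1 was at 20.6 to 26.2 CPM in summer (median 25.1) and at 10.3 to 12.9 CPM in winter (median 11.5). Every bear thus had about the same fall of MCCC1, from −1.15 to −0.97, around a fitted −1.07 ± 0.10 (SE, adjusted p = 4.00e-05). MCCC2 was at 23.5 to 38.1 CPM in summer (median 28.1) and at 10.2 to 15.7 CPM in winter (median 11.4), a fitted difference of −1.29 ± 0.15 (SE, adjusted p = 0.000144). Its fall varied more between bears, from −1.80 in bear 1317 to −0.58 in bear 1509.

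In the valine branch, HIBCH releases free hydroxyisobutyrate from its CoA ester. It was at 58.8 to 77.3 CPM in summer (median 73.0) and at 18.6 to 47.2 CPM in winter (median 28.7). The seasons did not overlap, although bear 1509 came close, with 59.6 CPM in summer and 47.2 in winter. The fitted difference was −1.31 ± 0.18 (SE, adjusted p = 0.000347) and −1.49 without bear 1509, whose own difference was −0.33 against −1.91 to −1.16 in the other bears.

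The profiles of the 10 genes were compared by the root mean square difference of their log2 CPM over the 12 libraries, each gene centred on its own mean. BCKDHB and MCCC1 were the closest pair, at 0.186, followed by MCCC1 and MCCC2 at 0.253. BCKDHA was the farthest from the rest, at 0.718 to 1.25 with a median of 0.912, against medians of 0.343 for BCKDHB to 0.644 for PPM1K. All libraries enter these distances, so the seasonal change and the spread between bears both count in them.

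Ratios of reads between 2 genes of the same library ask whether genes changed unequally, and do not depend on the scaling of libraries. For 5 ratios the winter minus summer differences of the 6 bears were tested by an exact two-sided permutation test that swaps the seasons within bears, in which the smallest possible p is 0.03125. The ratio of BCAT2 to BCKDHA differed by −1.55 ± 0.55 on the log2 scale (SD, n = 6 bears) and was lower in winter in 6 of 6 bears (exact permutation p = 0.03125, adjusted over the 5 ratios 0.0781). Its summer values, 0.50 to 1.29, did not overlap with those of winter, −1.28 to 0.48. The ratio of BCKDHB to DBT was higher in winter in 6 of 6 bears, by 0.55 ± 0.33 (SD, n = 6 bears, exact permutation p = 0.03125, adjusted 0.0781), but by only 0.04 in bear 1316.

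For the alpha subunit against the beta subunit, BCKDHA to BCKDHB, the log2 ratio ran from −0.73 to 0.09 in summer and from −0.88 to 1.497 in winter. It was higher in winter in 5 of 6 bears, by 1.03 ± 0.84 (SD, n = 6 bears, exact permutation p = 0.0625, adjusted 0.0781), and lower in bear 1509. The kinase to phosphatase ratio, BCKDK to PPM1K, ran from −0.34 to 1.68 in summer and from 0.58 to 1.87 in winter. It was higher in winter in 5 of 6 bears, by 0.79 ± 0.76 (SD, n = 6 bears, exact permutation p = 0.0625, adjusted 0.0781), and lower by 0.70 in bear 1509. MCCC1 to MCCC2, the subunits of a single carboxylase, differed least, by 0.22 ± 0.40 (SD, n = 6 bears, exact permutation p = 0.250, adjusted 0.250), with 4 bears higher and 2 lower. None of the 5 ratios passed an adjusted p of 0.05, but with 6 bears a ratio could pass only if at least 4 of the 5 reached the smallest p, so this says little. Without bear 1509 the mean difference was 1.33 for BCKDHA to BCKDHB and 1.09 for BCKDK to PPM1K, with 5 bears and a smallest possible p of 0.0625.

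**Figure D3:**
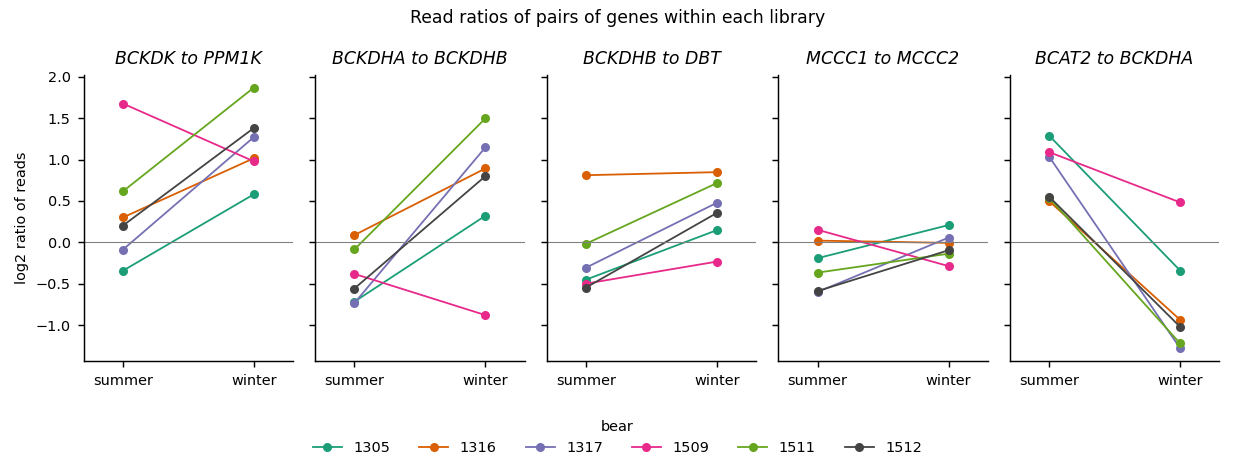
Log2 ratio of reads for 5 pairs of genes in the summer and the winter library of each bear. BCAT2 to BCKDHA is lower in winter in all 6 bears, and bear 1509 runs against the other bears for BCKDK to PPM1K and for BCKDHA to BCKDHB.

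A further 24 genes of the pathway, listed by symbol, cover the other steps, the entry of the amino acids into the cell and known regulators. Of these, 17 were called lower, against 21.2% of all genes tested, and 0 higher in edgeR, and without adjustment of p or in DESeq2 the number higher was 0 as well. They had a median log2 fold change of −0.71, against −0.01 for all genes. Every winter library lay below every summer library for 15 of them, as for 8.21% of all genes. Among the 17 enzymes, cofactor genes and the carrier, 14 were lower. The 2 largest falls stood at the end of the valine and isoleucine branches, where propionyl-CoA is carboxylated and isomerized to feed the TCA cycle. PCCB, a subunit of propionyl-CoA carboxylase, fell by 2.40 ± 0.19 (SE, adjusted p = 1.60e-05). MMUT, the methylmalonyl-CoA mutase that the count table lists as MUT, fell by 2.12 ± 0.17 (SE, adjusted p = 1.89e-05). PCCA, the other subunit of this carboxylase, stood at −0.88 ± 0.11 (SE, adjusted p = 0.000200). The difference between PCCA and PCCB was not tested. MCEE and MMAA were called lower too, with smaller falls than PCCB and MMUT, and MMAB was not called. MCEE, the epimerase between the carboxylase and the mutase, was at −0.53 (adjusted p = 0.00222), and MMAA, which helps to load the mutase with its cobalamin cofactor, at −0.94 (adjusted p = 0.00108). MMAB, which makes that cofactor, was at −0.14 (adjusted p = 0.623), higher in 3 bears and lower in 3.

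All 7 further enzymes of the isoleucine and valine branches were lower. ACADSB, the dehydrogenase of the isoleucine branch, stood at −1.08 and ALDH6A1, which makes propionyl-CoA from valine, at −1.24, while HSD17B10 was at −0.55. In the leucine branch AUH, the hydratase that follows the carboxylase, was at −0.11 (adjusted p = 0.530) and was not called.

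DLD, the dihydrolipoyl dehydrogenase that the complex shares with other keto-acid dehydrogenases, fell by 0.65 ± 0.15 (SE, adjusted p = 0.00566). BCAT1, the cytosolic transaminase, was at −0.62 (adjusted p = 0.0435), but at 0.0924 without the replicate block and at 0.0522, 0.120, 0.0704 and 0.105 without bear 1316, 1317, 1511 or 1512. Its log2 fold change without bear 1512 was −0.39. SLC25A44, the mitochondrial carrier of branched-chain amino acids, stood at −0.01 (adjusted p = 0.961), higher in 3 bears and lower in 3. BCKDHA was thus not alone among the shared steps in lacking a call.

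Of the 5 transporters of the cell membrane, SLC7A8 (−1.34, adjusted p = 0.000128) and SLC43A2 (−1.27, adjusted p = 0.000264) were lower in 6 of 6 bears. SLC7A5 and SLC3A2, the light and heavy chains of a main leucine exchanger, were at 0.11 (adjusted p = 0.781) and 0.08 (adjusted p = 0.662), SLC43A1 at 0.18 (adjusted p = 0.398). SLC7A5 had only 11 to 26 reads per library. KLF15, a transcription factor known to activate BCAT2 in muscle, was at −1.32 ± 0.27 (SE, adjusted p = 0.00304) and lower in 6 of 6 bears. PPARGC1A, a coactivator of mitochondrial genes, was at −0.02 (adjusted p = 0.943).

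**Figure D4:**
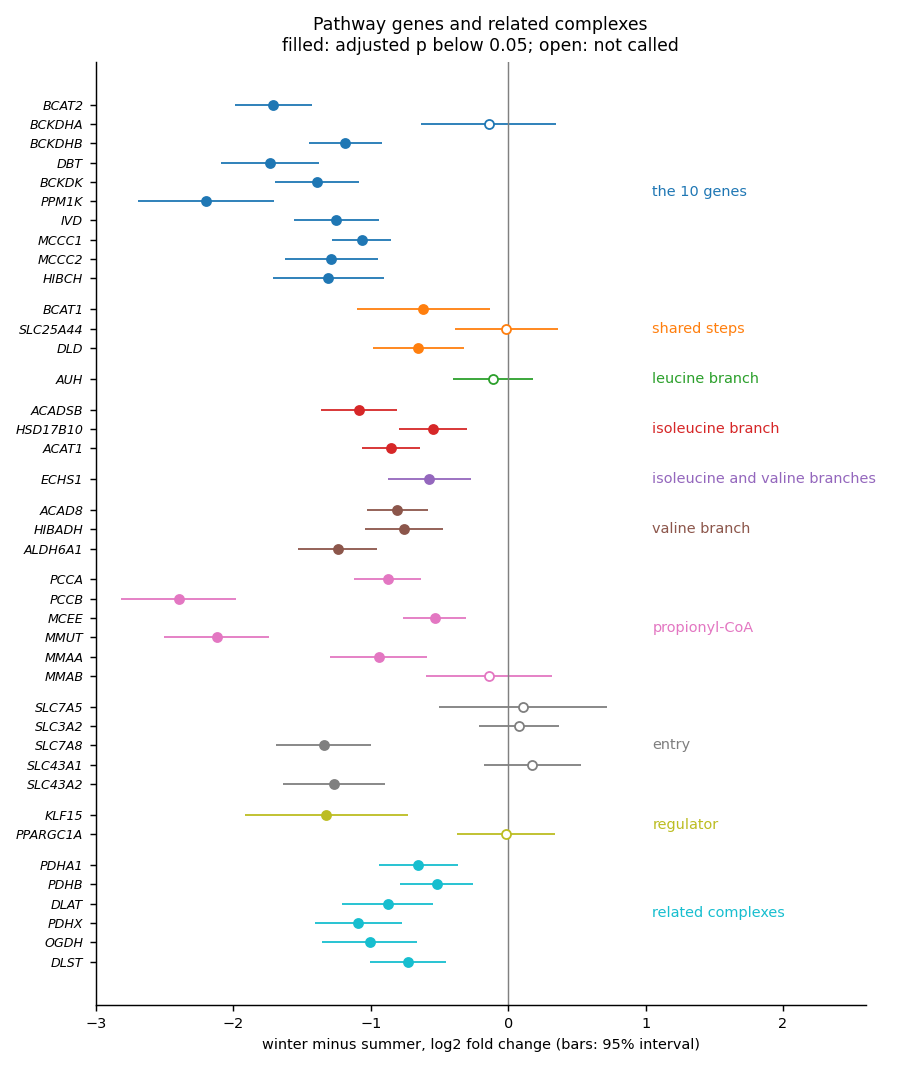
Log2 fold changes, winter minus summer, with 95% intervals for the 10 genes, the 24 further pathway genes by step and 6 subunits of related dehydrogenase complexes. Filled points were called at an adjusted p below 0.05, and all of them lie below 0.

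The pyruvate and oxoglutarate dehydrogenase complexes are built on the same plan. All 6 of their listed subunits were called lower, against 21.2% of all genes tested. Their median was −0.80, with values from −1.09 for PDHX to −0.52 for PDHB. For 4 of the 6 every winter library lay below every summer library, as for 8.21% of all genes, while the seasons overlapped for PDHA1 and PDHB. The decarboxylase alpha subunit of the pyruvate complex, PDHA1, was at −0.65 ± 0.13 (SE, adjusted p = 0.00273), whereas BCKDHA, its counterpart, was at −0.14. The difference between these 2 changes was not tested.

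Other transcripts of the biopsy moved with the season too. The summed level of 8 genes of mitochondrial content was 4123 to 5322 CPM in summer and 3440 to 5246 CPM in winter. Like the other sums of this paragraph it was scaled to library totals. On that scale it was lower in 5 of 6 bears, and with TMM factors the direction per bear was not computed. In this list 2 genes were called lower and 2 higher, from −0.68 for HSPD1 to 1.24 for TOMM20. The summed levels of fibroblast, endothelial and macrophage markers were lower in winter in 6 of 6 bears each, with 4 of 5, 4 of 5 and 3 of 5 genes called lower and 0 higher. Their ranges were 2943 to 8169 CPM in summer and 214 to 1351 in winter for fibroblasts, 537 to 1045 and 357 to 486 for endothelium, and 64.3 to 116 and 36.0 to 72.3 for macrophages. The adipocyte sum was also lower in 6 of 6 bears, at 342 to 1324 CPM in summer and 203 to 452 in winter, but it was carried by FABP4 (−0.84, adjusted p = 0.0136), a fatty acid binding protein that endothelium makes too. FABP4 was the 1 of 6 adipocyte genes called lower, with 0 higher. ADIPOQ was lower in 3 bears and higher in 3, PLIN1, CIDEA and LEP were each higher in 4 of 6 bears, and CIDEC was lower in 4. Bear 1316 stood apart, with differences of −5.92 for ADIPOQ, −4.98 for PLIN1, −7.25 for CIDEC and −6.15 for CIDEA. For ADIPOQ the other bears lay between −0.39 and 1.92, and its highest summer level was 348 CPM against a median of 32.3. Smooth muscle and pericyte genes gave 2 of 4 lower, Schwann cell genes 1 of 4 and satellite cell genes 2 of 2. Their summed levels were 434 to 587 CPM in summer and 216 to 349 in winter, 13.0 to 40.9 and 5.66 to 126, and 4.59 to 9.35 and 1.25 to 2.55. For red blood cells only ALAS2 passed the filter and was not called, and the summed level of the markers found was at most 2.27 CPM. No marker found in the table was at 0 in all libraries. The part of these shifts in the results above was not tested.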

How the data were processed

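RNA of 12 vastus lateralis biopsies, 6 bears in summer and winter, was sequenced as stranded poly-A libraries. The authors aligned single-end reads to ASM358476v1 with TopHat 2.1.1, counted reads per gene on the opposite strand with featureCounts 1.6.2 and deposited these counts, not normalized. Season and bear number come from the labels.

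R 4.3.3 with edgeR 4.0.16 (glmQLFit, glmQLFTest, TMM) was used, with season and bear as terms, since every bear gave a library in each season, by the study's methods. As a check of this pairing, the gene-wise residuals after removing the season mean had a correlation of 0.0903 to 0.344 within bears (median −0.0634 and highest 0.142 across bears, so that the pair of bear 1509, the lowest, does not stand apart from unrelated pairs). Genes under 30 reads in total were left out. Counts per sample were shown as CPM, log2 CPM used a prior count of 2, and 0.5 reads were added in ratios. The summed levels of marker lists used library totals in place of TMM factors. Alternatives were fits with no replicate block, DESeq2 1.42.0, limma 3.58.1 voom, other scalings and filters, stricter thresholds and each bear left out.

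All 10 genes were named in full, and other genes by lists of pathway steps, related complexes and cell type markers. The genes and lists were chosen with earlier results of these data known. MYH7, TIMM23 and some other listed genes are not reported here, and the counts over lists leave them out. Depth was 16742406 to 32140160 reads per library and 85 to 2159 reads per gene of the 10, and the standard errors cover counting error and the spread between bears together. Each standard error of a fitted difference is the absolute log2 fold change divided by the square root of the test's F. The 95% intervals use it with 10.7 degrees of freedom, from a variance moderated over genes. In RefSeq's gene table of another assembly (UrsArc2.0), the spans of 6 of the 10 genes overlap another entry, mostly noncoding, with strand not considered. Those of BCKDHA and of BCKDK, IVD and MCCC1, which were called lower, do not. Exon lengths and sequences were not used here, so levels were not compared between genes.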

Additional observations from a re-analysis of the deposited data

Results flagged for a closer look

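Among 25 groups of 6 values (the level of each gene in each season and the change of each ratio), 4 held a value whose gap to its neighbour was above Dixon's 95% critical value for 6 samples, where chance gives about 1 in 20 groups. In summer, BCKDHB stood at 4.63 log2 CPM in bear 1316 against 4.10 to 4.21 in the other bears. Bear 1316 also had the largest falls of adipocyte transcripts, and a link was not tested. In winter, DBT stood at 3.59 log2 CPM in bear 1509 against 2.38 to 2.77 and MCCC2 at 3.98 against 3.36 to 3.56. The log2 ratio of BCKDK to PPM1K changed by −0.70 from summer to winter in bear 1509, against 0.71 to 1.36 in the other bears. Thus 3 of the 4 values belong to bear 1509. Those of DBT and MCCC2 come from its winter library, which also stood apart on the second principal component. The ratio of BCKDK to PPM1K in this bear was unusual in summer, at 1.68 against −0.34 to 0.62 in the other bears. In winter it was 0.98, within their range of 0.58 to 1.87.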

How the results depend on the processing

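The count of genes called lower among the 10 was 9 in each of the 15 alternatives, and the count of higher ones 0. With no replicate block it was also 9, and over all genes 3445 were then lower and 3386 higher, against 3663 and 3392 with the block. Over all genes, an adjusted p below 0.01 with a fold change above 1.3 or below 0.77 gave 2325 lower and 2115 higher. Of the 24 further genes, 16 to 17 were called lower over the alternatives. Among the 10 genes, the 24 further genes and the 6 related subunits, dropping the block changed only the call of BCAT1. The sign of BCKDHA turned without bear 1509 (range −0.31 to 0.073 over left-out bears), that of SLC25A44 without bear 1316 (0.075) or 1509 (−0.12 to 0.12), that of PPARGC1A without bear 1317 or 1509 (0.10; −0.11 to 0.11), that of SLC7A5 without bear 1305 (−0.00015 to 0.29) and that of SLC3A2 with library totals (−8.9e-05). None of these 5 genes was called in any alternative, and the cause was not tested. Leaving out a bear moved the ratio change of BCKDK to PPM1K to between 0.67 and 1.09 and that of BCKDHA to BCKDHB to between 0.86 and 1.33. With 5 bears the permutation test cannot reach 0.05. With 6 bears, a winter level of BCKDHA below 0.645 or above 1.28 of that in summer lay outside the 95% interval of the fit. That interval rests on a variance moderated over genes, not on the 6 bears alone.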

Other observations

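PPM1K had the largest change of the 10 genes, and the genes with the most similar profile over the 12 libraries were looked up among 10335 genes with a symbol. By the root mean square difference of centred log2 CPM these were NT5E (0.372), CHODL (0.386), GPAT3 (0.406), MPST (0.447) and LPL (0.468). LPL is the lipoprotein lipase that releases fatty acids from circulating triglycerides, and NT5E the ectonucleotidase that makes extracellular adenosine. All 5 were lower in winter, from a log2 fold change of −2.33 for CHODL (adjusted p = 9.31e-05) to −1.70 for LPL (adjusted p = 0.000612), in edgeR with the bear as a block. The distance was computed on the libraries that show the seasonal change, so it describes a likeness in size and in spread between bears.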
